A study of Mus musculus with 12 samples.

Results

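Livers of p53 knockout mice on a high-fat diet (HFD) were set against livers of p53 wild-type mice on a normal diet, so that genotype and diet both differed between the groups. The groups are called ko_HFD and wt_normal. They were chosen by the genotype and diet in the labels and hold 6 of the 12 liver RNA-seq libraries of the series, 3 in each group. The other 6 libraries, 3 of wild-type livers on HFD (wt_HFD) and 3 of knockout livers on the normal diet (ko_normal), differ from wt_normal in 1 factor each and share the estimate of the spread. All mice were C57BL/6 and 12 weeks old, and no further allele or agent is named. The sources used here do not give the sex of the mice, the kind of p53 allele, what the diet held and for how long it was fed, the hour of sampling or whether the mice had fasted. The labels do not tie the 3 libraries of a group to 3 animals. The p-values therefore measure only how far these libraries spread, part or all of which may be technical. Of 52636 genes in the count tables, 14433 passed the filter on low counts and were tested.

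The p53 protein is a transcription factor that is stabilised by DNA damage and other stresses and switches on genes of cell cycle arrest, DNA repair and cell death, Cdkn1a among them. Liver cells make cholesterol from acetyl-CoA through the mevalonate pathway, whose genes are switched on by the factor SREBP2 when sterols in the endoplasmic reticulum run low. The related factor SREBP1, encoded by Srebf1, drives genes of fatty acid synthesis and responds to insulin. The title of the series names Sqle, the squalene epoxidase of the cholesterol pathway, as a gene under the control of p53.

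Trp53, which encodes p53 (ENSMUSG00000059552, GRCm38 chromosome 11, 69580359 to 69591873, plus strand), had 0.701, 0.748 and 0.752 CPM (counts scaled to library size) in ko_HFD and 16.3, 14.5 and 15.6 CPM in wt_normal. The groups lay far apart and each sat in a narrow range. The log2 change was -4.39 (SE 0.56, adjusted p = 0.00549), lower in 3 of 3 ko_HFD libraries. Every adjusted p given here is from edgeR's two-sided quasi-likelihood test with Benjamini-Hochberg adjustment over the 14433 genes, and a gene is said to have risen or fallen at an adjusted p under 0.05. Log2 changes are ko_HFD minus wt_normal, the size of each rise or fall is given on the log2 scale, and CPM are scaled by the trimmed mean of M values (TMM). Gene positions are those of GENCODE M21.

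Total counts were 15757330 to 18615222 in ko_HFD and 15465187 to 18584789 in wt_normal. The 10 hepatocyte markers summed to 83237 to 91597 CPM in ko_HFD and 49808 to 65358 CPM in wt_normal, and none was called. Library wt_normal replicate 2 stood apart: markers of skeletal muscle made up 1.53% of its counts, against no more than 0.00159% in the other 11 libraries, and markers of B cells took 0.0294%, against at most 0.00331%. Results that rest on it are given without it as well, and a range given beside a list's median is that over the 12 fits that leave out 1 library each. Mitochondrially encoded genes took 4.01 to 9.98% of the counts in ko_HFD and 4.56 to 5.22% in wt_normal.

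In ko_HFD livers 127 genes rose and 51 fell, 1.23% of the genes tested (0.88% higher and 0.353% lower). Counts of calls in a list are to be read beside these shares. Among the rises were 10 genes of cholesterol synthesis, 12 of the interferon response and 6 of MHC class I antigen presentation. Genes that fell included Trp53, its target Cdkn1a, the drug-oxidising enzyme gene Cyp3a11 and the aminotransferase gene Got1. Of the rises 115 were over 2-fold and 44 over 4-fold, and of the falls 43 were over 2-fold and 19 over 4-fold. In each of the 178 calls the groups did not overlap, which also held for 12.2% (ko_HFD above) and 14.1% (ko_HFD below) of all genes tested. Before adjustment 18.4% of the genes (2660) had p under 0.05, and the median log2 change of all genes was -0.03.

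**Figure D1:**
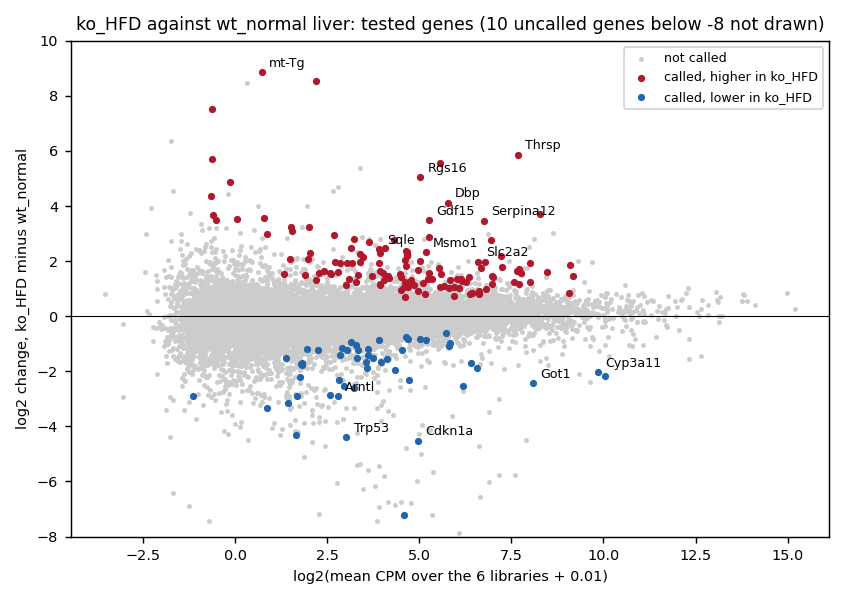
Log2 change of the tested genes (ko_HFD minus wt_normal) against the log2 of the mean CPM of the 6 libraries plus 0.01; 10 uncalled genes below -8 are not drawn. Each point is a gene, and colour marks the 127 genes that rose, the 51 that fell and the rest, which were not called.

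The count of calls depended on single libraries. Without wt_normal replicate 2 it was 48 (40 higher, 8 lower), of which 46 were among the 178. It was 84 without wt_normal replicate 3 and 266 without wt_normal replicate 1, and 76, 101 and 114 without ko_HFD replicate 1, 2 or 3. Since all groups share the spread, it also moved without ko_normal replicate 3, to 116. No call changed sign in any of these fits, but with groups that do not overlap a change of sign could hardly occur. The calls of 36 genes (31 higher, 5 lower) held with each of the 12 libraries left out in turn. Serpina12, Slc22a7, Sqle, Msmo1, Cyp51, Per2, Slc2a2, Irf7, Xaf1, Psmb9 and Stard4 are among those that rose, and Trp53, Cyp3a11 and Got1 among those that fell.

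**Figure D2:**
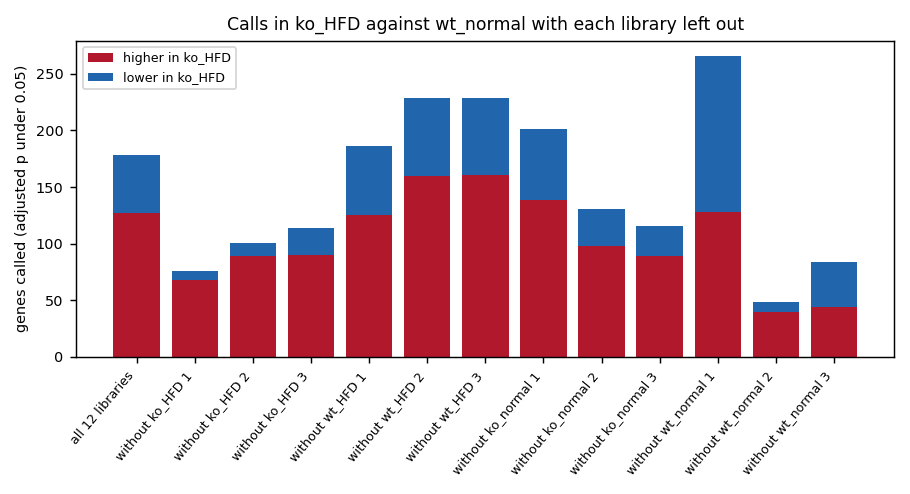
Number of genes called in ko_HFD against wt_normal (adjusted p under 0.05) in the fit to all 12 libraries and with each library left out, split into genes higher and lower in ko_HFD. The bar without wt_normal replicate 2 is the lowest, at 48, and that without wt_normal replicate 1 the highest, at 266.

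Of 21 tested genes of cholesterol synthesis 10 rose and none fell, with a list median of 1.15 on the log2 scale. The 10 run from the entry of the pathway to its last steps. Hmgcs1 makes HMG-CoA, Mvk acts on mevalonate and Mvd on its diphosphate. Fdft1 makes squalene, Sqle oxidises it and Lss closes the sterol ring, and Cyp51, Msmo1, Sc5d and Dhcr7 turn the first sterol into cholesterol. Sqle (ENSMUSG00000022351, GRCm38 chromosome 15, 59315077 to 59331192) had 34.2, 15.1 and 27.5 CPM in ko_HFD and 4.31, 5.24 and 4.55 CPM in wt_normal. The lowest ko_HFD library, replicate 2, still lay well above the wt_normal range. Sqle rose by 2.44 (SE 0.30, adjusted p = 0.00491), which is 5.43-fold. The groups that differ from wt_normal in 1 factor lay between, at 12.2 ± 1.79 CPM in wt_HFD and 8.36 ± 2.33 CPM in ko_normal (SD, n = 3 each). The interaction, the part of the ko_HFD change beyond the sum of these single changes, was 0.23 (SE 0.41, adjusted p = 0.999).

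Msmo1, the sterol C4-methyl oxidase, had 68.4, 49.9 and 62.4 CPM in ko_HFD and 9.60, 12.0 and 14.6 CPM in wt_normal. It rose by 2.32 (SE 0.20, adjusted p = 0.00017), with no overlap. Cyp51, the lanosterol demethylase, had 98.9, 55.6 and 60.2 CPM in ko_HFD and 21.3, 23.7 and 19.2 CPM in wt_normal and rose by 1.74 (SE 0.20, adjusted p = 0.00373). Mvd, which had 17.3, 15.9 and 11.6 CPM in ko_HFD and 4.86, 6.999 and 4.19 CPM in wt_normal, rose by 1.48 (SE 0.24, adjusted p = 0.014). Of the other members, Hmgcs1 rose by 1.43 (SE 0.26, adjusted p = 0.0239), Mvk by 1.34 (SE 0.25, adjusted p = 0.0247), Lss by 1.15 (SE 0.24, adjusted p = 0.0357), Fdft1 by 1.06 (SE 0.23, adjusted p = 0.0469), Sc5d by 0.99 (SE 0.20, adjusted p = 0.0317) and Dhcr7 by 0.96 (SE 0.16, adjusted p = 0.0154). In all 10 the groups did not overlap, as in each of the 178 calls. Of the 21 tested members 14 had every ko_HFD library above every wt_normal library, against 12.2% of all genes. In 1 member every ko_HFD library lay below, against 14.1%. The log2 change was above 0 in 16 members and below 0 in 5, where 46.8% of all genes had one above 0. Nsdhl, a sterol dehydrogenase, did not pass, with 1.43 (SE 0.32, adjusted p = 0.0545), nor did Idi1, the isopentenyl diphosphate isomerase, with 1.99 (SE 0.58, adjusted p = 0.097).

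Sqle, Msmo1 and Cyp51 kept their calls with each of the 12 libraries left out in turn. Leaving out wt_normal replicate 2 gave an adjusted p of 0.0546 for Hmgcs1, 0.0601 for Dhcr7, 0.131 for Sc5d and 0.148 for Lss. Other calls that ended were those of Mvk, Sc5d, Lss and Fdft1 without ko_HFD replicate 1 (0.0716 to 0.13), Hmgcs1, Lss and Fdft1 without ko_HFD replicate 2 (0.068 to 0.103), Hmgcs1, Mvk, Sc5d and Lss without ko_HFD replicate 3 (0.0502 to 0.0863) and Lss and Fdft1 without wt_normal replicate 1 (0.0578 to 0.0907). Further losses were those of Mvd, Dhcr7, Hmgcs1, Mvk, Sc5d, Lss and Fdft1 without wt_normal replicate 3 (0.0556 to 0.132), Fdft1 without wt_HFD replicate 1 or ko_normal replicate 1 or 2 (0.0565 to 0.0668) and Sc5d, Lss and Fdft1 without ko_normal replicate 3 (0.057 to 0.0777). The list had 6 calls and a median of 1.19 without wt_normal replicate 2, and 3 calls without wt_normal replicate 3.

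**Figure D3:**
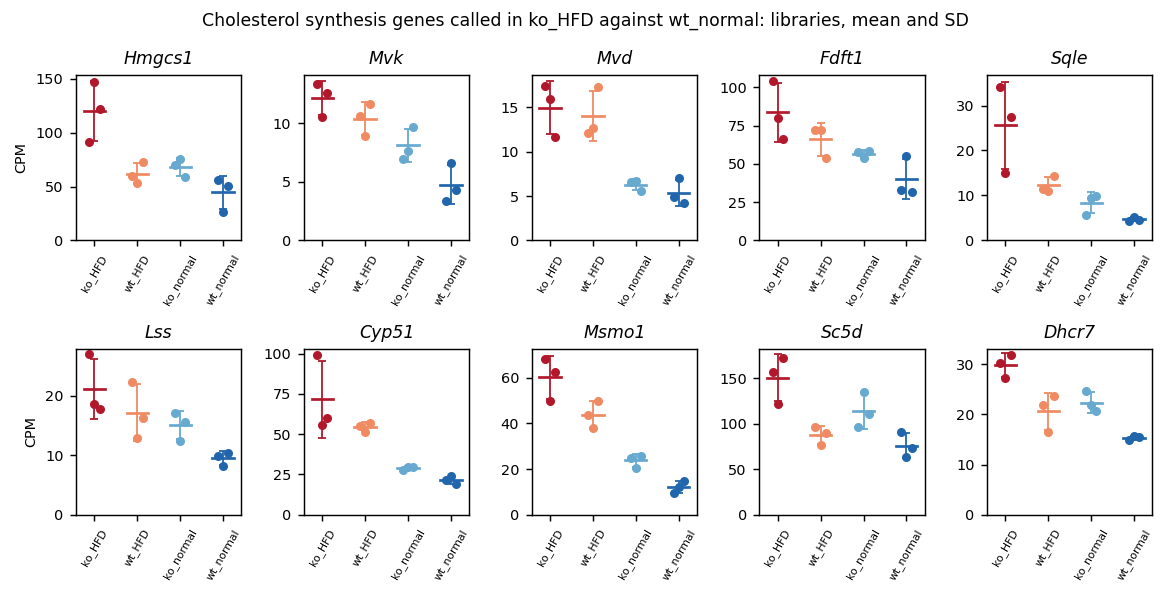
CPM of the 10 called cholesterol synthesis genes in the 12 libraries, a panel for each gene, by group. Points are libraries, horizontal lines group means and error bars the SD of 3 libraries. In each panel the 3 ko_HFD points lie above the 3 wt_normal points, as in every gene called higher.

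Of 12 tested genes of sterol sensing and uptake 4 rose and none fell (all genes: 0.88% rose, 0.353% fell), with a list median of 0.18. In 5 members every ko_HFD library lay above every wt_normal library, against 12.2% of all genes. In 3 members every ko_HFD library lay below, against 14.1%. Stard4, a carrier of cholesterol between membranes, had 43.8, 25.8 and 46.7 CPM in ko_HFD and 12.4, 12.2 and 8.53 CPM in wt_normal. Each ko_HFD library was well above each wt_normal library, and Stard4 rose by 1.81 (SE 0.24, adjusted p = 0.00549). Insig1, which holds SREBP in the endoplasmic reticulum, had 90.6, 93.7 and 87.8 CPM in ko_HFD and 48.3, 46.6 and 39.7 CPM in wt_normal and rose by 1.02 (SE 0.17, adjusted p = 0.017). Srebf2, which encodes SREBP2, had 0.71 (SE 0.16, adjusted p = 0.0535), and Mylip, a ubiquitin ligase, -1.76 (SE 0.39, adjusted p = 0.0505). Stard4 kept its call with each of the 12 libraries left out in turn. In the fit without wt_normal replicate 2 the adjusted p was 0.0595 for Insig1. Leaving out other libraries ended the calls of Insig1 without ko_HFD replicate 2 or wt_normal replicate 3 (0.0512 to 0.0701).

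The promoter of Hmgcs1 is shown because it alone, of the 8 called cholesterol genes with a promoter entry, held the letters of a sterol regulatory element, TCACNCCAC on either strand, between 250 bases before and 50 bases after the start site. Sqle and Fdft1 had no entry. Of all 32851 promoters of that length, 408 (1.24%) held the letters. A called gene counted if any of its promoter entries held them, while this share is of single entries. The sequence is RefSeq's, build GRCm38.p6, chr13:119690101-119690400 (plus strand), with the match at -137 in capitals.
Hmgcs1: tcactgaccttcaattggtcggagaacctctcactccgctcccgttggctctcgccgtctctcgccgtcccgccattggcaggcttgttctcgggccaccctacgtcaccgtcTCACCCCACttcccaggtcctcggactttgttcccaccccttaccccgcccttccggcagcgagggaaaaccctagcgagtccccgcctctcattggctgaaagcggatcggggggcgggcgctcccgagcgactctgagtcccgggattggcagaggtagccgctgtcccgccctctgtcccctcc

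Of 21 tested genes of fatty acid and triglyceride synthesis 3 rose and none fell (all genes: 0.88% rose, 0.353% fell), with a list median of 0.34. Fasn, the fatty acid synthase, had 130.5, 99.9 and 72.9 CPM in ko_HFD and 47.4, 39.9 and 36.7 CPM in wt_normal and rose by 1.29 (SE 0.21, adjusted p = 0.0131). Srebf1 had 84.2, 84.2 and 45.4 CPM in ko_HFD and 24.6, 26.4 and 22.9 CPM in wt_normal and rose by 1.53 (SE 0.31, adjusted p = 0.0336). Replicate 3 was the lowest ko_HFD library for both. Thrsp, a lipogenic nuclear protein of liver and fat, had 938, 46.9 and 220.4 CPM in ko_HFD and 5.35, 9.47 and 5.72 CPM in wt_normal. Its ko_HFD libraries differed widely among themselves, yet each lay above each wt_normal library, and it rose by 5.87 (SE 1.18, adjusted p = 0.0332).

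Glucose metabolism had 3 rises and no fall among 26 tested genes (all genes: 0.88% rose, 0.353% fell), with a list median of -0.04 (range -0.18 to 0.10). Slc2a2, which encodes the hepatocyte glucose transporter GLUT2, had 124, 165 and 177 CPM in ko_HFD and 51.6, 27.9 and 38.5 CPM in wt_normal. These ranges were well apart, and Slc2a2 rose by 1.98 (SE 0.24, adjusted p = 0.00457). Its level was 78.6 ± 13.2 CPM in wt_HFD and 148 ± 20.5 CPM in ko_normal (SD, n = 3 each). Pklr, liver pyruvate kinase, had 40.6, 14.97 and 69.3 CPM in ko_HFD and 8.06, 6.33 and 9.86 CPM in wt_normal and rose by 2.36 (SE 0.50, adjusted p = 0.043). The gluconeogenic genes G6pc and Pck1 had -1.17 (SE 0.34, adjusted p = 0.0971) and -0.76 (SE 0.30, adjusted p = 0.194). Slc2a2 kept its call with each of the 12 libraries left out in turn. Without wt_normal replicate 2 the adjusted p was 0.0546 for Fasn, 0.113 for Srebf1, 0.12 for Thrsp and 0.163 for Pklr. The adjusted p was also above 0.05 for Srebf1, Thrsp and Pklr without ko_HFD replicate 1 or wt_normal replicate 1 (0.0615 to 0.101), Srebf1 without ko_HFD replicate 2 (0.105) and Thrsp and Pklr without ko_HFD replicate 3 or ko_normal replicate 3 (0.0502 to 0.109). Calls were lost, too, for Fasn, Srebf1, Thrsp and Pklr without wt_normal replicate 3 (0.0556 to 0.105) and Srebf1 and Pklr without ko_normal replicate 2 (0.0527 to 0.0532). The call that ended in the fit to the 6 libraries alone was that of Pklr.

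Other lipid lists had no call: fatty acid oxidation and ketogenesis (25 tested, median -0.08, range -0.19 to 0.22), lipid droplet and lipolysis (15 tested, median -0.14, range -0.49 to 0.08), fatty acid uptake and binding (15 tested, median -0.09, range -0.17 to 0.02), apolipoproteins and VLDL assembly (14 tested, median 0.23, range 0.14 to 0.35), cholesterol efflux and esterification (10 tested, median 0.22, range 0.10 to 0.25) and bile acid synthesis and transport (21 tested, median 0.02, range 0.02 to 0.20). Soat2, which esterifies cholesterol in the liver, had 109, 85.4 and 50.5 CPM in ko_HFD and 36.1, 34.3 and 35.8 CPM in wt_normal, a log2 change of 1.21 (SE 0.27, adjusted p = 0.0527). Pdk4, a brake on glucose oxidation, had 2.63, 2.94 and 7.08 CPM in ko_HFD and 10.2, 197 and 14.3 CPM in wt_normal, and -4.14 (SE 1.17, adjusted p = 0.0904). Its highest library was the one with muscle transcripts, without which its change was -1.53 (adjusted p = 0.493).

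Type I interferons act through a complex of transcription factors that binds a short DNA element in the promoters of antiviral genes, and IRF7 amplifies the response. Of 44 tested interferon response genes 12 rose and none fell, and the median log2 change was 1.08. In 30 of the 44 every ko_HFD library lay above every wt_normal library, against 12.2% of all genes. Irf7 had 150.0, 169 and 159 CPM in ko_HFD and 46.6, 44.2 and 49.8 CPM in wt_normal, narrow ranges that were far apart, and rose by 1.77 (SE 0.25, adjusted p = 0.00687). Summed over the list the level was 1454 to 2020.4 CPM in ko_HFD and 872 to 1013 CPM in wt_normal. In wt_HFD it was 1199, 1218 and 1492 CPM, and in ko_normal 1067, 1829 and 1838 CPM.

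Oas1g, a sensor of double-stranded RNA, had 7.71, 5.24 and 6.08 CPM in ko_HFD and 1.35, 1.62 and 1.48 CPM in wt_normal and rose by 2.09 (SE 0.29, adjusted p = 0.00549). Oas1a rose by 1.64 (SE 0.33, adjusted p = 0.0313). The Oas1 genes have near-identical copies between which reads may be split, so their single values are uncertain. Zbp1, a sensor of Z-form nucleic acid, rose by 2.24 (SE 0.43, adjusted p = 0.0254). Effector genes rose as well, Ifit1 by 2.77 (SE 0.51, adjusted p = 0.0238), Ifit3 by 1.95 (SE 0.35, adjusted p = 0.0228) and Ifi44 by 3.10 (SE 0.54, adjusted p = 0.0187). Isg15, a ubiquitin-like modifier, had 17.9, 51.3 and 58.0 CPM in ko_HFD and 10.2, 5.48 and 9.55 CPM in wt_normal, and of the ko_HFD libraries replicate 1 was the closest to wt_normal. It rose by 2.34 (SE 0.49, adjusted p = 0.0373). Xaf1, which promotes cell death, rose by 1.95 (SE 0.30, adjusted p = 0.00947) and Ifi35 by 1.07 (SE 0.16, adjusted p = 0.00954). Guanylate-binding protein genes Gbp7 and Gbp3 rose by 1.92 (SE 0.32, adjusted p = 0.0143) and 1.60 (SE 0.28, adjusted p = 0.0191). Apol9a, outside the list and with a close copy in Apol9b, had 134, 194 and 197 CPM in ko_HFD and 51.9, 40.8 and 42.6 CPM in wt_normal and rose by 1.96 (SE 0.26, adjusted p = 0.00549).

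Promoters of Isg15, Ifit1, Ifit3 and Oas1g are shown because they hold the letters of the interferon-stimulated response element, TTTC, any 2 bases and TTTC, searched on both strands. Of the 12 called genes 11 had a promoter entry, and 7 held the letters (Ifit1, Ifit3, Isg15, Oas1a, Oas1g, Gbp3 and Gbp7). Of all 32851 promoters of the same 300 bases 1131 (3.44%) held the letters. A called gene counted if any of its entries held the letters, while this share is of single entries. Irf7, Xaf1, Ifi35 and Ifi44 did not hold them in this window, and Zbp1 had no entry. The sequences are RefSeq's, build GRCm38.p6, on the strand of the gene, at chr4:156200769-156201068 (minus strand) for Isg15, chr19:34640639-34640938 (plus strand) for Ifit1, chr19:34583279-34583578 (plus strand) for Ifit3 and chr5:120887564-120887863 (minus strand) for Oas1g. Capitals mark the matches. In Isg15 and Oas1g the matches overlap in 1 run and read as the reverse complement. A match is of letters only and does not show that a factor was bound.
Isg15: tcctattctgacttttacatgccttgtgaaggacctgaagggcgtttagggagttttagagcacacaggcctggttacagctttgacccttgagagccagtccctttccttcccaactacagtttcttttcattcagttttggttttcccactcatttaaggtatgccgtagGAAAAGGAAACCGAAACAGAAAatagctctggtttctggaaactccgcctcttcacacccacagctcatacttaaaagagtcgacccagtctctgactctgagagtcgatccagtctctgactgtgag
Ifit1: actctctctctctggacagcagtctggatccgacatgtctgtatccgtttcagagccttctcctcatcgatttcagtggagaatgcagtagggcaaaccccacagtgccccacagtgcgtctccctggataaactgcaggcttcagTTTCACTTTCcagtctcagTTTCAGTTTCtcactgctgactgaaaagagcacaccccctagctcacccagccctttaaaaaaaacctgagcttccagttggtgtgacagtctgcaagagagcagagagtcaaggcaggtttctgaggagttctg
Ifit3: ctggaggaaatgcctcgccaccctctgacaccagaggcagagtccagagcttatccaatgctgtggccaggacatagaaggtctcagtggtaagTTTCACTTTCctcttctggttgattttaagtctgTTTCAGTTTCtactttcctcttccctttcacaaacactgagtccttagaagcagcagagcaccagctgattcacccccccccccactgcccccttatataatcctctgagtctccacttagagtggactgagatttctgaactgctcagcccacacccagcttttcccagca
Oas1g: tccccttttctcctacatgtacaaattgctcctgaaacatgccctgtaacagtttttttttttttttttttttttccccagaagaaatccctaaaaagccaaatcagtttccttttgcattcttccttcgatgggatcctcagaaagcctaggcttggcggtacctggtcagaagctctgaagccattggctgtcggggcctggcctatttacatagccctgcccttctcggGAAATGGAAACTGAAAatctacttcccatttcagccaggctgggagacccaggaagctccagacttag

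Peptides shown on MHC class I are cut by the immunoproteasome and carried by the TAP transporter, and interferons induce both. Of 21 tested genes of this pathway 6 rose and none fell, with a median of 0.68, and in 18 the ko_HFD libraries lay wholly above the wt_normal libraries, against 12.2% of all genes. The list summed to 7147 to 8689 CPM in ko_HFD and 5004 to 6557 CPM in wt_normal. Its sum was 5934 to 6301 CPM in wt_HFD and 6939 to 7872 CPM in ko_normal. The immunoproteasome subunit gene Psmb9 had 29.6, 51.6 and 60.7 CPM in ko_HFD and 14.5, 14.4 and 15.8 CPM in wt_normal and rose by 1.67 (SE 0.25, adjusted p = 0.00925). Psmb8 and Psmb10, the other inducible subunits, rose by 1.297 (SE 0.21, adjusted p = 0.0132) and 1.02 (SE 0.19, adjusted p = 0.0247). Tap2, a subunit of the transporter, rose by 1.12 (SE 0.18, adjusted p = 0.0127), the proteasome activator Psme2 by 0.83 (SE 0.17, adjusted p = 0.0376) and H2-T22, a class I gene with close relatives among which reads may be split, by 0.79 (SE 0.17, adjusted p = 0.0452).

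Markers of T and NK cells, 8 tested and none called, had a median log2 change of 0.03 and summed to 10.04, 10.4 and 10.9 CPM in ko_HFD and 8.98, 13.9 and 5.41 CPM in wt_normal. Without wt_normal replicate 2, the highest library, their median was 0.50 and the summed levels of the groups no longer overlapped, and their part in the interferon values was not tested. Macrophage markers, 16 tested and none called, had a median of -0.04 (range -0.28 to 0.13) and summed to 423 to 828 CPM in ko_HFD and 472 to 692 CPM in wt_normal. Irf7, Oas1g, Xaf1, Ifi35 and Apol9a kept their calls with each of the 12 libraries left out in turn. Leaving out wt_normal replicate 2 gave an adjusted p of 0.0546 for Gbp3, 0.0546 for Ifit1, 0.0698 for Ifit3, 0.0766 for Ifi44, 0.106 for Oas1a, 0.11 for Zbp1 and 0.148 for Isg15. Calls also ended for Oas1a and Zbp1 without ko_HFD replicate 1 (0.0553 to 0.077), Oas1a, Ifit1, Ifit3, Isg15 and Gbp3 without ko_HFD replicate 2 (0.0585 to 0.105) and Oas1a, Zbp1, Ifit3, Isg15 and Gbp3 without ko_HFD replicate 3 (0.0543 to 0.0942). Further losses were those of Oas1a, Zbp1 and Isg15 without wt_normal replicate 1 (0.0552 to 0.0648), Oas1a, Zbp1, Ifit1, Isg15, Gbp3 and Gbp7 without wt_normal replicate 3 (0.0556 to 0.0914) and Isg15 without ko_normal replicate 2 or 3 (0.0532 to 0.0559). The interferon list had 5 calls and a median of 1.13 without wt_normal replicate 2.

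Psmb9 kept its call with each of the 12 libraries left out in turn. In the fit without wt_normal replicate 2 the adjusted p was 0.0523 for Psmb8, 0.0546 for Tap2, 0.0883 for Psmb10, 0.137 for Psme2 and 0.158 for H2-T22. Other calls that ended were those of Psmb10, Psme2 and H2-T22 without ko_HFD replicate 1 (0.0749 to 0.114), Psme2 and H2-T22 without ko_HFD replicate 2 or 3 or ko_normal replicate 2 or 3 (0.0527 to 0.112), H2-T22 without wt_normal replicate 1 or wt_HFD replicate 1 or 3 (0.0505 to 0.0869) and Psmb8, Psmb10, Psme2 and H2-T22 without wt_normal replicate 3 (0.0501 to 0.0921). The antigen presentation list had 1 call and a median of 0.69 without wt_normal replicate 2.

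**Figure D4:**
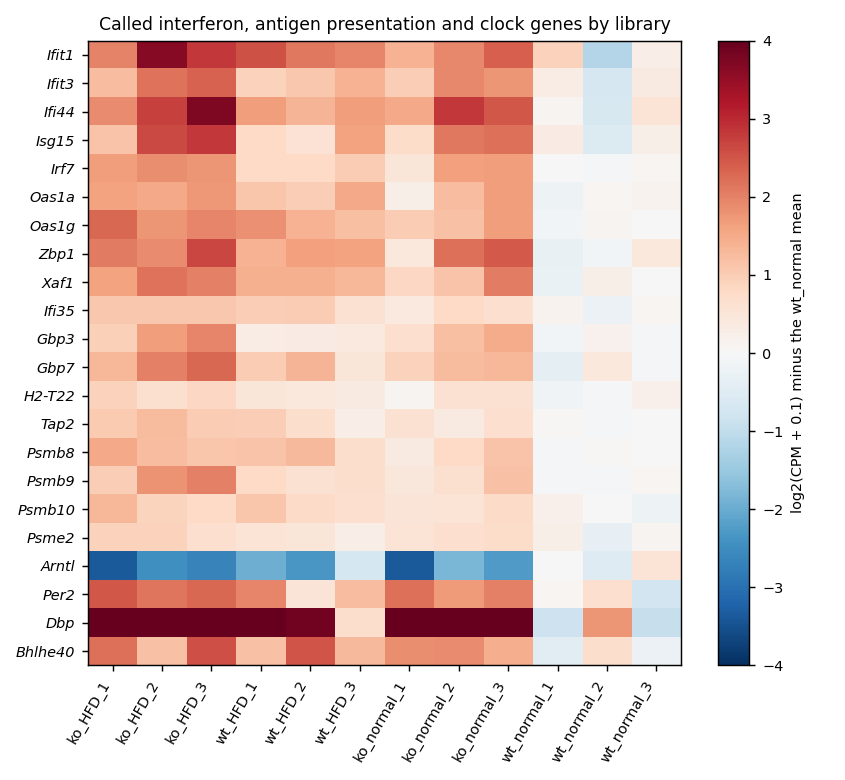
Level of the called interferon, antigen presentation and clock genes in each of the 12 libraries, as log2(CPM + 0.1) minus the mean of the 3 wt_normal libraries. Rows are genes and columns libraries, and colours saturate at -4 and 4. As in every called gene, the 3 ko_HFD values lie on one side of the 3 wt_normal values, below for Arntl and above for the others.

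The circadian clock of the liver drives daily cycles of RNA, in which Arntl runs opposite to Per2 and Dbp. Of 19 tested clock genes 3 rose and 1 fell in ko_HFD (all genes: 0.88% rose, 0.353% fell), with a list median of 0.76. Dbp, a clock output factor, had 74.6, 125 and 112 CPM in ko_HFD and 2.15, 13.5 and 2.04 CPM in wt_normal and rose by 4.12 (SE 0.87, adjusted p = 0.0414), or by 5.64 without wt_normal replicate 2 (adjusted p = 0.0239). Per2, a repressor within the clock, had 47.2, 37.5 and 41.4 CPM in ko_HFD and 8.92, 13.5 and 4.96 CPM in wt_normal and rose by 2.20 (SE 0.37, adjusted p = 0.0155). For both genes wt_normal replicate 2 was the wt_normal library closest to ko_HFD. Bhlhe40, another repressor, had 56.6, 27.6 and 73.1 CPM in ko_HFD and 8.86, 19.6 and 10.3 CPM in wt_normal and rose by 2.02 (SE 0.43, adjusted p = 0.0441). Arntl, which encodes the core activator BMAL1, had 1.05, 2.07 and 1.76 CPM in ko_HFD and 11.5, 8.09 and 17.1 CPM in wt_normal and fell by 2.90 (SE 0.51, adjusted p = 0.0187). Against wt_normal the log2 change of Dbp was also above 0 in wt_HFD (3.06) and in ko_normal (4.46). Summed over the clock list the level was 867, 829 and 793 CPM in ko_HFD and 424, 537 and 421 CPM in wt_normal. In wt_HFD it was 785, 643 and 519 CPM, and in ko_normal 1235, 769 and 855 CPM. The hour of sampling is not given, so a difference in hour between the groups and a change of the clock cannot be told apart. Per2 kept its call with each of the 12 libraries left out in turn. Without wt_normal replicate 2 the adjusted p was 0.0527 for Bhlhe40. Leaving out other libraries ended the calls of Dbp, Bhlhe40 and Arntl without ko_HFD replicate 1 or 3 or wt_normal replicate 3 (0.0567 to 0.121), Dbp without ko_HFD replicate 2 (0.0962) and Dbp and Bhlhe40 without wt_normal replicate 1 or ko_normal replicate 1, 2 or 3 (0.0512 to 0.0837). In the fit to the 6 libraries alone, the call of Bhlhe40 ended.

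Of 31 tested p53 target genes 1 fell and 1 rose (all genes: 0.353% fell, 0.88% rose), and the median log2 change was -0.44. Cdkn1a, which encodes the cell cycle inhibitor p21, had 1.23, 2.48 and 4.14 CPM in ko_HFD and 31.9, 33.3 and 115 CPM in wt_normal. The groups did not overlap, and replicate 3 was the highest library of each. Cdkn1a fell by 4.52 (SE 0.88, adjusted p = 0.0296). Gdf15, a stress hormone that p53 and other stress pathways induce, had 83.5, 19.7 and 108 CPM in ko_HFD and 10.5, 5.52 and 2.91 CPM in wt_normal and rose by 3.49 (SE 0.68, adjusted p = 0.0298). Its level was 82.8 ± 54.8 CPM in wt_HFD and 16.8 ± 8.63 CPM in ko_normal (SD, n = 3 each). Mdm2, the ligase that degrades p53, had -0.50 (SE 0.16, adjusted p = 0.116) and Ccng1, cyclin G1, -1.41 (SE 0.39, adjusted p = 0.0887). In 7 of the 31 the ko_HFD libraries lay wholly below the wt_normal libraries, against 14.1% of all genes. Gadd45a, a DNA damage gene, had 2.80 (SE 0.64, adjusted p = 0.0536).

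Cell cycle genes had 1 call among 26 tested and a median of -0.13 (range -0.24 to 0.02). It was Cenpm, a centromere protein gene, with 3.56, 3.68 and 2.32 CPM in ko_HFD and 0.123, 0.190 and 0.460 CPM in wt_normal, which rose by 3.57 (SE 0.47, adjusted p = 0.00549). Cenpm kept its call with each of the 12 libraries left out in turn. Leaving out wt_normal replicate 2 gave an adjusted p of 0.0527 for Cdkn1a and 0.123 for Gdf15. The adjusted p was also above 0.05 for Cdkn1a and Gdf15 without ko_HFD replicate 1 or 3 or wt_normal replicate 3 (0.0636 to 0.111) and Cdkn1a without ko_HFD replicate 2 (0.106). The call that ended in the fit to the 6 libraries alone was that of Gdf15.

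Cytochrome P450 enzymes oxidise drugs and steroids. Of 28 tested genes of P450 families 2 and 3 and their regulators 2 fell and 1 rose (all genes: 0.353% fell, 0.88% rose). The list median was 0.32. Cyp3a11, an abundant drug-oxidising P450 of mouse liver with close relatives, had 465, 256 and 366 CPM in ko_HFD and 1499, 1274 and 1651 CPM in wt_normal. The groups were well apart, and Cyp3a11 fell by 2.02 (SE 0.29, adjusted p = 0.00675). It was 114 ± 43.2 CPM in wt_HFD and 1309.7 ± 184 CPM in ko_normal (SD, n = 3 each). Cyp2c40 had 1.52, 2.76 and 2.76 CPM in ko_HFD and 19.8, 9.09 and 6.64 CPM in wt_normal and fell by 2.33 (SE 0.47, adjusted p = 0.0336). Its near-identical relative Cyp2c69, like it a female-biased gene of mouse liver, fell by 3.17 (SE 0.61, adjusted p = 0.0277), and reads may be split between them. Of 13 tested female-biased liver genes 2 fell and none rose, with 5 log2 changes above 0 and 8 below. No member of that list was called without wt_normal replicate 2. Of 19 tested male-biased liver genes 1 rose and none fell, with a median of 0.02. Cyp2u1 had 44.7, 68.8 and 59.1 CPM in ko_HFD and 22.9, 18.0 and 17.9 CPM in wt_normal and rose by 1.55 (SE 0.23, adjusted p = 0.00925).

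Of 35 tested genes of phase II conjugation 1 rose and 1 fell (all genes: 0.88% rose, 0.353% fell), both glutathione transferases. Gstt1 had 246, 254 and 303 CPM in ko_HFD and 141, 78.9 and 122 CPM in wt_normal and rose by 1.23 (SE 0.27, adjusted p = 0.0452). Gsta2, which has close copies, had 5.02, 5.87 and 4.33 CPM in ko_HFD and 17.1, 20.3 and 19.1 CPM in wt_normal and fell by 1.89 (SE 0.41, adjusted p = 0.0452). Cyp3a11 and Cyp2u1 kept their calls with each of the 12 libraries left out in turn. In the fit without wt_normal replicate 2 the adjusted p was 0.0546 for Cyp2c69, 0.0671 for Cyp2c40, 0.135 for Gsta2 and 0.158 for Gstt1. Calls also ended for Cyp2c40, Cyp2c69, Gstt1 and Gsta2 without ko_HFD replicate 1, 2 or 3 (0.0723 to 0.138), Cyp2c40, Cyp2c69 and Gsta2 without wt_normal replicate 1 (0.0508 to 0.0616) and Gstt1 and Gsta2 without wt_normal replicate 3 (0.0941 to 0.102). To these are added Cyp2c40, Gstt1 and Gsta2 without ko_normal replicate 2 (0.0535 to 0.066) and Cyp2c40 and Gstt1 without ko_normal replicate 3 (0.0562 to 0.0595). In the fit to the 6 libraries alone, the calls of Gstt1 and Cyp2c40 ended, and with voom those of Cyp2c69 and Cyp2c40, and with the replicate block that of Cyp2c40.

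Single genes fell in the urea cycle and tryptophan lists. Got1, the cytosolic aspartate aminotransferase, had 82.5, 76.4 and 95.5 CPM in ko_HFD and 239, 519 and 615 CPM in wt_normal. The groups were far apart, and Got1 fell by 2.43 (SE 0.34, adjusted p = 0.006), the only call among 19 tested urea cycle and ammonia genes (median -0.26). Cps1 and Ass1, enzymes of the urea cycle, had -1.25 (SE 0.31, adjusted p = 0.0695) and -1.04 (SE 0.27, adjusted p = 0.0734), and Tat, tyrosine aminotransferase, -1.45 (SE 0.34, adjusted p = 0.0584). Acmsd, which diverts tryptophan from NAD synthesis, had 10.3, 9.44 and 6.96 CPM in ko_HFD and 31.4, 43.9 and 57.3 CPM in wt_normal and fell by 2.31 (SE 0.44, adjusted p = 0.0248), the only call among 18 tested genes of that pathway. Etnppl, a phospholyase of phosphoethanolamine, had 36.1, 54.6 and 30.3 CPM in ko_HFD and 156, 174 and 116 CPM in wt_normal and fell by 1.88 (SE 0.37, adjusted p = 0.0313). Got1 kept its call with each of the 12 libraries left out in turn. Without wt_normal replicate 2 the adjusted p was 0.0707 for Acmsd and 0.117 for Etnppl. Other calls that ended were those of Acmsd and Etnppl without ko_HFD replicate 1 or 3 or wt_normal replicate 3 (0.0509 to 0.117), Acmsd without ko_HFD replicate 2 (0.0844) and Etnppl without ko_normal replicate 2 (0.0511).

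Serpina12, which encodes the secreted serpin vaspin, had 199.6, 170.2 and 221 CPM in ko_HFD and 25.7, 14.5 and 13.2 CPM in wt_normal. Each ko_HFD library was far above each wt_normal library, and Serpina12 rose by 3.47 (SE 0.27, adjusted p = 9.91e-05). It was 219.9 ± 41.3 CPM in wt_HFD and 106 ± 15.5 CPM in ko_normal (SD, n = 3 each). Lect2, a liver-derived chemotactic factor, rose by 1.46 (SE 0.28, adjusted p = 0.0249). With Gdf15 these were the 3 calls among 23 tested hepatokines. Saa4, a constitutive serum amyloid A, had 1438, 642 and 471 CPM in ko_HFD and 294, 189 and 223 CPM in wt_normal and rose by 1.85 (SE 0.36, adjusted p = 0.0277), the only call among 25 tested acute phase genes (median 0.52). Library ko_HFD replicate 1 stood apart from the other ko_HFD libraries on this list. The summed level was 119615, 29662 and 26349 CPM in ko_HFD and 30944, 35374 and 48354 CPM in wt_normal. In wt_HFD it was 105024, 108448 and 103827 CPM, near ko_HFD replicate 1, and in ko_normal 19375, 47055 and 41116 CPM. Without ko_HFD replicate 1 the list median was -0.38 and the change of Saa4 1.27 (adjusted p = 0.0526). Creld2, a chaperone induced by stress in the endoplasmic reticulum, had 107, 103 and 93.2 CPM in ko_HFD and 53.7, 27.5 and 38.0 CPM in wt_normal and rose by 1.35 (SE 0.22, adjusted p = 0.0123), the only call among 26 tested genes of that response (median 0.57).

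Ifitm3, an antiviral membrane protein, rose by 1.47 (SE 0.28, adjusted p = 0.0248), Slc13a3, a dicarboxylate transporter, by 1.32 (SE 0.25, adjusted p = 0.0248) and Stat5a, a mediator of growth hormone signals, by 1.47 (SE 0.27, adjusted p = 0.0238). Stat5a was the only call among 21 tested genes of the growth hormone and IGF axis (median 0.01). Ndrg1, a hypoxia-induced gene, fell by 1.65 (SE 0.34, adjusted p = 0.0376), the only call among 18 tested hypoxia response genes (median -0.03). Slc23a1, a vitamin C transporter in none of the lists, had 38.1, 37.4 and 42.3 CPM in ko_HFD and 9.91, 8.33 and 10.3 CPM in wt_normal and rose by 2.05 (SE 0.15, adjusted p = 9.91e-05). Lists with no call were complement and coagulation (33 tested, median 0.30, range 0.17 to 0.46), NRF2 antioxidant targets (16 tested, median -0.19, range -0.20 to 0.02), immediate early (20 tested, median 0.05, range -0.17 to 0.43) and iron handling (20 tested, median -0.23, range -0.26 to -0.12). Serpina12 and Slc23a1 kept their calls with each of the 12 libraries left out in turn. Leaving out wt_normal replicate 2 gave an adjusted p of 0.0633 for Lect2, 0.0883 for Stat5a, 0.11 for Ifitm3, 0.113 for Slc13a3, 0.121 for Saa4 and 0.136 for Ndrg1. Leaving out other libraries ended the calls of Lect2, Saa4, Ifitm3, Slc13a3, Stat5a and Ndrg1 without ko_HFD replicate 1 (0.0515 to 0.115), Lect2, Slc13a3, Stat5a and Ndrg1 without ko_HFD replicate 2 (0.0715 to 0.134) and Lect2, Ifitm3 and Ndrg1 without ko_HFD replicate 3 (0.0587 to 0.0684). Further losses were those of Ndrg1 without wt_normal replicate 1 or ko_normal replicate 2 or 3 (0.0511 to 0.068) and Lect2, Saa4, Creld2, Ifitm3, Slc13a3, Stat5a and Ndrg1 without wt_normal replicate 3 (0.0505 to 0.088). Calls that ended in the fit to the 6 libraries alone were those of Stat5a, Lect2 and Saa4.

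**Figure D5:**
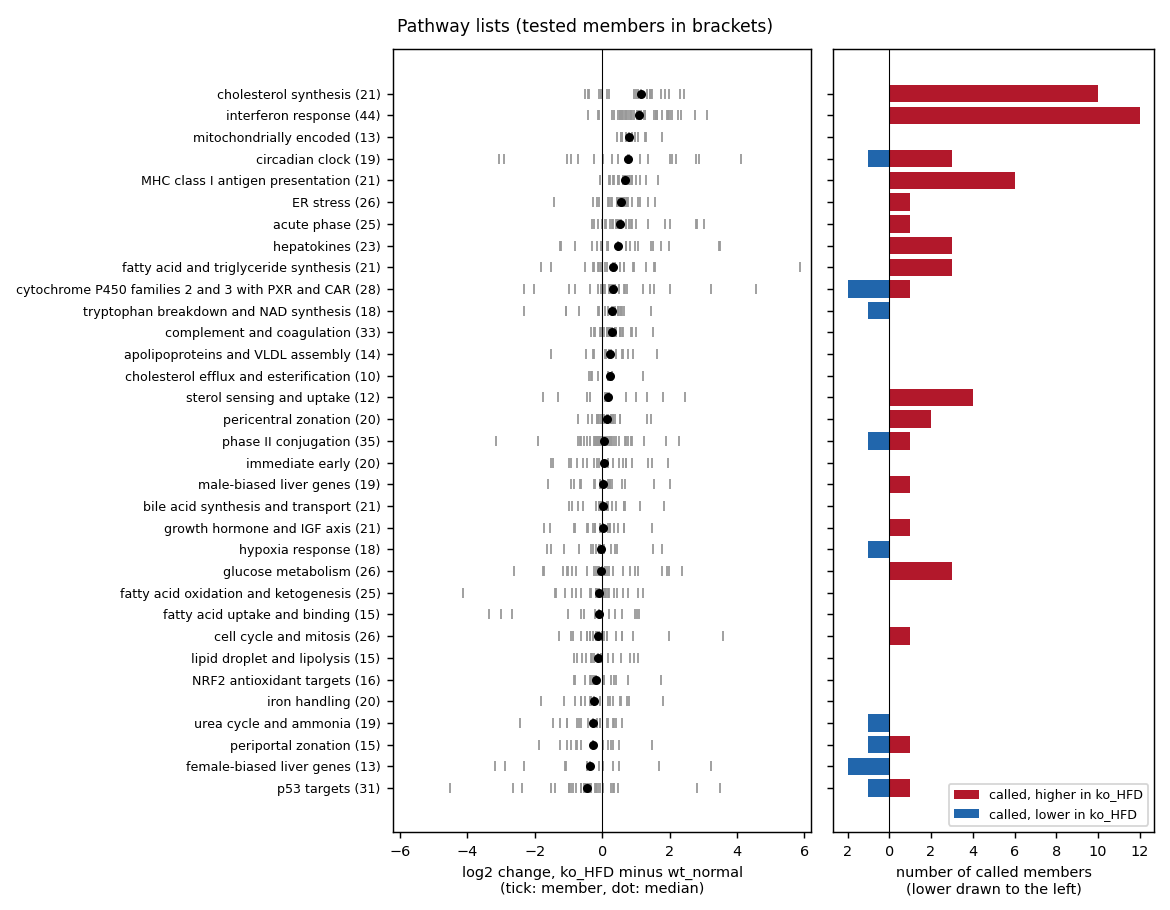
The 33 pathway lists. In one panel ticks are the log2 changes of the tested members (ko_HFD minus wt_normal) and dots their medians, and in the other bars count the members called higher and lower in ko_HFD. Among these lists cholesterol synthesis has the highest median, 1.15, and the interferon response the most calls, 12.

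Some of the largest rises were uneven among the ko_HFD libraries. Rgs16, a brake on G protein signalling, had 119.8, 41.6 and 29.4 CPM in ko_HFD and 1.48, 2.62 and 1.63 CPM in wt_normal and rose by 5.04 (SE 0.83, adjusted p = 0.014). Cxcl1, a chemokine that attracts neutrophils, had 247, 16.3 and 13.2 CPM in ko_HFD and 3.26, 1.19 and 1.43 CPM in wt_normal and rose by 5.57 (SE 1.19, adjusted p = 0.043). In both genes ko_HFD replicate 1 was far above the others, and without it the change of Cxcl1 was 2.96 (adjusted p = 0.101). Neutrophil markers, 4 tested and none called, summed to 47.2 CPM in that library and to 6.33 to 9.08 CPM in the other 5, and their part in the Cxcl1 value was not tested. Serpina4-ps1, a serpin pseudogene, had 577, 115 and 1040.1 CPM in ko_HFD and 63.8, 21.1 and 46.5 CPM in wt_normal and rose by 3.72 (SE 0.70, adjusted p = 0.0248). Foxq1, a forkhead transcription factor, had a smaller and more even rise. It had 13.0, 10.4 and 15.4 CPM in ko_HFD and 2.03, 2.62 and 5.52 CPM in wt_normal and rose by 1.93 (SE 0.36, adjusted p = 0.0239).

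Further large rises were in genes of low count. The mitochondrial glycine tRNA gene mt-Tg had 167 summed counts in ko_HFD and none in wt_normal, and against a floor of 3 counts over the wt_normal group it was at least 63.0-fold higher (adjusted p = 0.00954). It was also at 0.998 to 3.71 CPM in ko_normal and without a count in wt_HFD, so that it split the 12 libraries by genotype on either diet. For the arginine tRNA gene mt-Tr the ratio of summed CPM was 33.6 (exact 95% interval 11.1 to 166, 89 against 3 counts, adjusted p = 0.0187). For the pseudogene Ccl19-ps3 it was 23 (7.51 to 115, 61 against 3 counts, adjusted p = 0.0257). Gpx6, a glutathione peroxidase, had 0.818, 1.73 and 1.07 CPM in ko_HFD and 0.123, 0.0476 and 0.102 CPM in wt_normal and rose by 3.66 (SE 0.62, adjusted p = 0.0158). Such intervals and floors cover counting error only, and reads of mitochondrial tRNA genes may be split with nuclear copies. Of the 13 mitochondrially encoded protein genes none was called, with a median of 0.78. mt-Tg kept its call with each of the 12 libraries left out in turn. In the fit without wt_normal replicate 2 the adjusted p was 0.0546 for Rgs16, 0.0584 for mt-Tr, 0.0883 for Gpx6, 0.1 for Serpina4-ps1, 0.107 for Foxq1, 0.12 for Ccl19-ps3 and 0.164 for Cxcl1. The adjusted p was also above 0.05 for Ccl19-ps3, Cxcl1, Serpina4-ps1 and Foxq1 without ko_HFD replicate 1 (0.0579 to 0.101), Gpx6 without ko_HFD replicate 2 (0.0637) and Serpina4-ps1 and Foxq1 without ko_HFD replicate 3 (0.0592 to 0.0605). To these are added Ccl19-ps3 and Cxcl1 without wt_normal replicate 1 (0.0512 to 0.0615), mt-Tr, Ccl19-ps3, Gpx6, Rgs16, Cxcl1 and Serpina4-ps1 without wt_normal replicate 3 (0.0565 to 0.121) and Cxcl1 without wt_HFD replicate 1 or ko_normal replicate 1, 2 or 3 (0.0513 to 0.069). In the fit to the 6 libraries alone, the calls of Foxq1, Ccl19-ps3, Serpina4-ps1 and Cxcl1 ended, and with the replicate block that of Cxcl1.

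In 6 of the largest falls, those of Gsn, Igfbp5, Aebp1, Tuba8, Timp3 and Csgalnact1, the highest of the 6 libraries was wt_normal replicate 2, which carries the muscle transcripts. Gsn, which encodes the actin-severing protein gelsolin, had 15.3, 20.7 and 29.0 CPM in ko_HFD and 71.8, 225 and 75.9 CPM in wt_normal and fell by 2.52 (SE 0.47, adjusted p = 0.0248). Igfbp5, a binding protein of insulin-like growth factors, had 2.28, 3.63 and 2.07 CPM in ko_HFD and 8.49, 31.5 and 8.53 CPM in wt_normal and fell by 2.60 (SE 0.51, adjusted p = 0.029). Aebp1, a protein of the extracellular matrix, fell by 2.86 (SE 0.57, adjusted p = 0.0313) and Tuba8, an alpha tubulin, by 2.54 (SE 0.54, adjusted p = 0.0441). Without that library the log2 changes were -1.75 for Gsn, -1.66 for Igfbp5, -1.99 for Aebp1, -1.70 for Tuba8, -2.89 for Timp3 and -2.53 for Csgalnact1, and none of the 6 passed.

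Timp3, an inhibitor of matrix proteases, had 0.292, 0.115 and 0.564 CPM in ko_HFD and 2.40, 4.95 and 2.50 CPM in wt_normal and fell by 3.33 (SE 0.68, adjusted p = 0.0349). Csgalnact1, an enzyme of chondroitin synthesis, fell by 2.91 (SE 0.59, adjusted p = 0.0336). Rnf144a, a ubiquitin ligase, had 0.467, 0.633 and 1.19 CPM in ko_HFD and 5.48, 4.14 and 7.36 CPM in wt_normal, with wt_normal replicate 2 the lowest of its group, and fell by 2.88 (SE 0.48, adjusted p = 0.0141). Without wt_normal replicate 2 the adjusted p was 0.0671 for Gsn, 0.0828 for Igfbp5, 0.12 for Aebp1, 0.133 for Timp3, 0.163 for Csgalnact1 and 0.166 for Tuba8. Calls also ended for Gsn, Igfbp5, Aebp1, Tuba8, Timp3, Csgalnact1 and Rnf144a without ko_HFD replicate 1 or 2 (0.06 to 0.127), Gsn, Igfbp5, Aebp1, Tuba8, Timp3 and Csgalnact1 without ko_HFD replicate 3 (0.0502 to 0.093) and Tuba8, Timp3, Csgalnact1 and Rnf144a without wt_normal replicate 3 (0.0505 to 0.0706). Calls were lost, too, for Tuba8 without wt_HFD replicate 1 or ko_normal replicate 1 (0.0517 to 0.0548), Tuba8, Timp3 and Csgalnact1 without ko_normal replicate 2 (0.055 to 0.066) and Aebp1, Tuba8, Timp3 and Csgalnact1 without ko_normal replicate 3 (0.0553 to 0.069). Calls that ended in the fit to the 6 libraries alone were those of Gsn, Aebp1, Csgalnact1, Igfbp5 and Tuba8, and with the replicate block that of Csgalnact1.

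All 12 endothelial cell markers had a log2 change below 0, where 46.8% of all genes had one above 0, with a median of -1.16 (-0.95 without wt_normal replicate 2), and in 11 the ko_HFD libraries lay wholly below the wt_normal libraries, against 14.1% of all genes. Kdr, the receptor VEGFR2, was the 1 member called, with 10.5, 14.7 and 15.9 CPM in ko_HFD and 29.5, 30.6 and 36.6 CPM in wt_normal, and fell by 1.24 (SE 0.27, adjusted p = 0.0461). Ptprb, an endothelial phosphatase, had -1.16 (SE 0.26, adjusted p = 0.0535) and Pecam1, the adhesion molecule CD31, -1.26 (SE 0.30, adjusted p = 0.0596). Summed over the list the level was 253, 308 and 378 CPM in ko_HFD and 479, 554 and 543 CPM in wt_normal. In bulk liver fewer cells of a type and less RNA per cell cannot be told apart. Leaving out wt_normal replicate 2 gave an adjusted p of 0.123 for Kdr. Its call also ended without ko_HFD replicate 1, 2 or 3, wt_normal replicate 1 or 3, wt_HFD replicate 3 or ko_normal replicate 3 (0.05005 to 0.153).

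Stellate cell and fibrosis markers, 15 tested and none called, had a median of -0.95 (-0.62 without wt_normal replicate 2) and summed to 121, 162 and 227 CPM in ko_HFD and 252, 936 and 368 CPM in wt_normal. Skeletal muscle markers, 10 tested and none called, had a median of -9.82 (-1.29 without that library), and B cell markers, 9 tested and none called, -1.72 (0.36). The neutrophil markers had a median of 1.503, and of -0.87 without ko_HFD replicate 1. No member was called among erythroid markers (6 tested, median -0.41, range -1.41 to -0.12), cholangiocyte markers (7 tested, median 0.29, range 0.14 to 0.35), adipocyte markers (4 tested, median 0.66, range -0.66 to 1.24) and pancreas acinar markers (2 tested, median 0.33, range -0.03 to 0.53). The adipocyte median was -0.66 without ko_HFD replicate 3 and 1.24 without wt_normal replicate 2, and the erythroid median -1.41 without ko_HFD replicate 1.

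The interaction of genotype and diet asks whether the ko_HFD change differs from the sum of the changes in wt_HFD and ko_normal. No gene was called by edgeR (0%), with 725 (5.02%) at an unadjusted p under 0.05, while DESeq2's Wald test called 19 and voom 1. The 3 genes with the smallest p were Serpina12, Foxq1 and Cdk5rap3, a gene of protein modification by UFM1, with -2.74 (SE 0.36, adjusted p = 0.0587), -3.09 (SE 0.49, adjusted p = 0.217) and -1.16 (SE 0.23, adjusted p = 0.675).

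Log2 changes against wt_normal in the 3 groups share the wt_normal libraries and are set side by side as values only. Serpina12 had 3.47 in ko_HFD, 3.63 in wt_HFD and 2.58 in ko_normal. Sqle had 2.44 in ko_HFD, 1.38 in wt_HFD and 0.83 in ko_normal, and Msmo1 2.32 in ko_HFD, 1.85 in wt_HFD and 0.98 in ko_normal. For all 3 of these genes each change was above 0. Irf7 had 1.77 in ko_HFD, 0.88 in wt_HFD and 1.35 in ko_normal, and Slc2a2 1.98 in ko_HFD, 0.997 in wt_HFD and 1.91 in ko_normal. Cyp3a11, the drug-oxidising P450, had -2.02 in ko_HFD, -3.69 in wt_HFD and -0.17 in ko_normal, so its value was furthest below 0 in wt_HFD. Cdkn1a had -4.52 in ko_HFD, -0.84 in wt_HFD and -5.22 in ko_normal, with the value nearest 0 in wt_HFD.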

How the data were processed

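RNA was sequenced from liver in 12 libraries, 3 in each of 4 groups of genotype and diet. The authors deposited a table of raw counts by gene for every library. CASAVA 1.8, Bowtie 0.12.2 and the builds mm8 and mm9 are named in the submitters' processing notes, with no role given; the sources used here do not give the counting tool or its strand setting. All 12 libraries entered 1 edgeR 4.0.16 quasi-likelihood fit in R 4.3.3 (limma 3.58.1), with TMM scaling, filterByExpr and Benjamini-Hochberg adjustment over 14433 genes. The fit was also run on simulated counts with known changes. No simulated library carried transcripts of another tissue, so that run does not bear on wt_normal replicate 2. The ko_HFD against wt_normal contrast and the interaction were tested at an adjusted p of 0.05. Replicates differed by far more than sampling noise (chi-square per degree of freedom 39.5 to 199). A 3 against 3 exact permutation test cannot go below p = 0.1 and was not used.

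Gene lists and comparisons were chosen with earlier results of these data known. Genes named are Trp53 and Sqle, the 12 largest changes in each direction and the 10 smallest adjusted p among called genes whose groups do not overlap (predicted genes left out, at most 2 of a family), up to 4 called members of each list, up to 2 members of lists with no call, and 3 genes for the interaction. Other list members, and genes named as not having passed beyond these, were named to complete a list after their values were seen. Some genes that the rule or a list holds are counted but not reported here. Alternatives were DESeq2 1.42.0 size factors and its Wald test, no filter, a filter of 1 CPM in 3 libraries, the 6 libraries alone, voom with sample weights, the replicate number as a block, and leaving out each library.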

Additional observations from a re-analysis of the deposited data

Results flagged for a closer look

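Only the 105 named genes were searched for knockout effects of opposite sign on the 2 diets. Foxq1 and Cdk5rap3 had been named for their small interaction p, which reflects the same pattern. In 3 of them, Foxq1, Creld2 and Cdk5rap3, every ko_HFD library lay below every wt_HFD library while every ko_normal library lay above every wt_normal library. The share of all tested genes with this pattern was not counted. The difference of the 2 knockout effects was -3.09 (SE 0.49, adjusted p = 0.217) on the log2 scale for Foxq1, -1.36 (SE 0.30, adjusted p = 0.675) for Creld2 and -1.16 (SE 0.23, adjusted p = 0.675) for Cdk5rap3, and none passed the edgeR interaction test with Benjamini-Hochberg adjustment. Foxq1 had 13.0, 10.4 and 15.4 CPM in ko_HFD, 16.8, 15.5 and 29.1 CPM in wt_HFD, 19.5, 20.4 and 15.1 CPM in ko_normal and 2.03, 2.62 and 5.52 CPM in wt_normal. Creld2 had 107, 103 and 93.2 CPM in ko_HFD, 125, 107 and 127 CPM in wt_HFD, 89.0, 93.6 and 75.0 CPM in ko_normal and 53.7, 27.5 and 38.0 CPM in wt_normal. Cdk5rap3 had 87.9, 79.8 and 61.4 CPM in ko_HFD, 100.2, 120.2 and 114 CPM in wt_HFD, 71.6, 85.7 and 74.6 CPM in ko_normal and 49.4, 53.8 and 48.3 CPM in wt_normal.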

How the results depend on the processing

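The 178 calls became 185 with DESeq2 size factors, 187 with the 1 CPM filter and 164 with the 6 libraries alone, of which 109 (61.2%) were among the 178. They became 863 without a filter (362 higher, 501 lower), 899 with DESeq2's Wald test (523 and 376) and 953 with voom (565 and 388). The cause was not tested. Leaving out 1 library gave 48 to 266 calls, 40 to 161 higher and 8 to 138 lower. Interaction calls were 13 without a filter, 19 with DESeq2, 1 with voom and 0 to 1 with a library left out. With the replicate block there were 227 calls, 144 higher and 83 lower. The labels do not say whether the replicate number pairs the libraries, and the correlations do not settle it. Of 18 same-numbered pairs 4 had a correlation of deviations above 0.1 (range -0.209 to 0.332). Of the 12 libraries 7 correlated best with one of their own number. For the called genes that the naming rule picked, leaving out a library kept 547 values called, ended 197 and reversed none. The other alternatives kept 409, ended 22 and reversed none. A reversal could hardly occur in genes whose groups do not overlap. The 6-library fit ended 17 (Cxcl1, Ccl19-ps3, Serpina4-ps1, Gdf15, Csgalnact1, Aebp1, Igfbp5, Tuba8, Gsn, Pklr, Bhlhe40, Cyp2c40, Gstt1, Saa4, Stat5a, Lect2 and Foxq1), voom 2 (Cyp2c69 and Cyp2c40) and the replicate block 3 (Cxcl1, Csgalnact1 and Cyp2c40). Among uncalled genes, only those that the naming rule picked were searched for a change of sign. Those that changed sign were Ighm (0.29 with voom, 0.85 without wt_normal replicate 2), S100a9 (-0.89 without ko_HFD replicate 1) and Cela2a (0.32 without ko_HFD replicate 3, 0.16 without wt_normal replicate 1). With each library left out these genes ranged over -3.11 to 0.85 for Ighm, -0.89 to 2.58 for S100a9 and -0.97 to 0.32 for Cela2a. With 3 libraries a group, a change that misses the threshold is not shown to be absent.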

Other observations

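In 5 genes the lowest library of one genotype was over 10-fold above the highest of the other, on either diet: mt-Tg, Gm42047, Gm47917 and the processed pseudogenes Gm47399 and Gm4742, all but mt-Tg chosen after their values were seen. The lincRNA gene Gm42047 had 0.109 to 0.633 CPM in the 6 knockout libraries and 8.53 to 156 CPM in the 6 wild-type libraries, and its change in ko_HFD against wt_normal was -7.20 on the log2 scale (adjusted p = 0.00605). The antisense gene Gm47917 had 2.15 to 12.1 CPM in the knockout libraries and at most 0.0567 CPM in the wild-type libraries (adjusted p = 0.00339). Neither gene lies on the chromosome of Trp53. Within 10 Mb of Trp53, 4 of 294 other tested genes were called (1.36%), against 1.23% of all genes. They were Srebf1, Xaf1, Tlcd2 and Sgsm2, with log2 changes of 1.53, 1.95, 1.35 and -1.23. The strain background of the knockout beyond the label is not given, and its part in these values was not tested.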
